A study of Homo sapiens with 4 samples.

Results

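The homing and adhesion receptors described here are 9 genes listed by symbol, a list made with earlier results of these data known. It holds CD44, the chemokine receptor gene CXCR4, and the integrin genes ITGA4, ITGA5, ITGA6, ITGAL, ITGB1, ITGB2 and ITGB7. These are 9 of the 18377 genes with a symbol of their own on the array, and each had 1 probe set, none of them shared with another gene symbol. Transcript levels were read in 4 established human lines of precursor B-cell acute lymphoblastic leukaemia (ALL), with 1 array of total RNA per line. RS4;11 and SEM contain the t(4;11) abnormality, in which the MLL gene (KMT2A) is rearranged, and NALM6 and REH lack it. All 4 lines were cultured in RPMI medium with fetal bovine serum up to subconfluency, and the labels name no drug or other agent. Each group is thus 2 lines, every other genetic difference between these lines enters the comparison, and a line outside the body does not meet marrow stroma or endothelium.

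Leukaemic precursor B cells, like their normal counterparts, depend on a small set of surface receptors to find the bone marrow and stay there. CXCR4 senses CXCL12 released by stromal cells and sets cells moving toward it. Integrins, each a dimer of an alpha and a beta subunit, then hold the cell: the alpha 4 chain (ITGA4) joins the beta 1 chain (ITGB1) to bind VCAM1 and fibronectin, or the beta 7 chain (ITGB7) to bind the gut addressin MADCAM1, while the alpha 5 chain (ITGA5) joins ITGB1 to bind fibronectin and the alpha 6 chain (ITGA6) joins it to bind laminin. ITGAL and ITGB2 form LFA-1, the leukocyte integrin for ICAM ligands. CD44 binds hyaluronan, a sugar polymer of the marrow matrix, and is tied to the cytoskeleton through ezrin, radixin and moesin.

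Values are log2 expression levels, so that 1 unit is a 2-fold difference. Array medians ranged from 6.40 to 6.46 and the 25th percentile between 4.97 and 5.02. The arrays carry no detection call, and levels of different genes are not set against each other, since each depends on its own probes. Precursor B-cell markers were measured for 7 of 9 listed genes, with a median of 10.25 to 11.40 per line. All 7 lay above the median of all gene values (6.75) in every line except VPREB1, a surrogate light chain gene, in REH (5.51). The medians of T and NK cell markers (4.78 to 4.93), of monocyte and granulocyte markers (5.09 to 5.55) and of stromal and endothelial markers (4.73 to 4.8) were low in every line. Of these lists 1 of 9, 3 of 8 and 1 of 9 genes reached 6.75 in any line. Among those 5, both t(4;11) lines lay above both others in NKG7, a lymphocyte granule gene (RS4;11 10.99, SEM 9.13, NALM6 6.39, REH 7.11), PDGFRB, a growth factor receptor gene (8.39, 9.29, 6.68 and 8.13), and CSF1R, a macrophage receptor gene (5.88, 7.69, 5.53 and 5.66). The rest of the 5 did not follow this order. In the same order of lines, LYZ was highest in NALM6 (8.27, 8.50, 9.65 and 5.80) and MPO was high in REH alone (4.78, 4.79, 4.75 and 7.57). The part of these 5 genes in the receptor values was not tested.

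CD44 was the receptor with the largest gap between the t(4;11) lines and the others. Its level was 11.01 in RS4;11 and 11.08 in SEM, against 6.37 in NALM6 and 5.98 in REH. Both t(4;11) lines were high and nearly equal, both other lines were low, and the gap between the nearest lines of the groups was 24.9-fold. The group means were 11.04 ± 0.05 and 6.17 ± 0.27 (SD, n = 2 lines each), a difference of 4.87 (SE 0.17, 95% interval 4.35 to 5.39) or 29.2-fold. Within groups the lines differed by 1.05-fold (RS4;11 and SEM) and 1.31-fold (NALM6 and REH). The levels in NALM6 and REH lay below the array median but above the 25th percentile, and without a detection call it is unknown whether they are transcript or background, so that the folds apply to the array values as deposited.

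The limma test left CD44 just short of its threshold of 0.05 (adjusted p = 0.0587 over 18377 genes), and none of the 9 receptors passed it, where 0.0218% of all genes did. At an unadjusted p under 0.05 CD44 was the 1 receptor of 9, against 9.39% of all genes. Its unadjusted p (4.4e-05) was the 10th smallest of all. With arrays centred on their medians the adjusted p was 0.0349. Without dim genes it was 0.0454, but CD44 passes that filter only through its high lines, RS4;11 and SEM. With a line left out the adjusted p was 0.17 (without RS4;11), 0.263 (SEM), 0.115 (NALM6) and 0.14 (REH), and the difference lay between 4.67 and 5.06. In these fits 1 group is a single line assumed to vary like the other group, and no gene of the whole table passed, so that the p-values say nothing particular about CD44. With 2 lines per group an exact permutation test can go no lower than 0.333. CD44 was also the 1 receptor separated 2-fold between the groups, meaning that every line of the higher group exceeded every line of the lower by that much. Among all genes 0.963% were separated upward in the t(4;11) lines in this way and 0.876% downward.

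**Figure D1:**
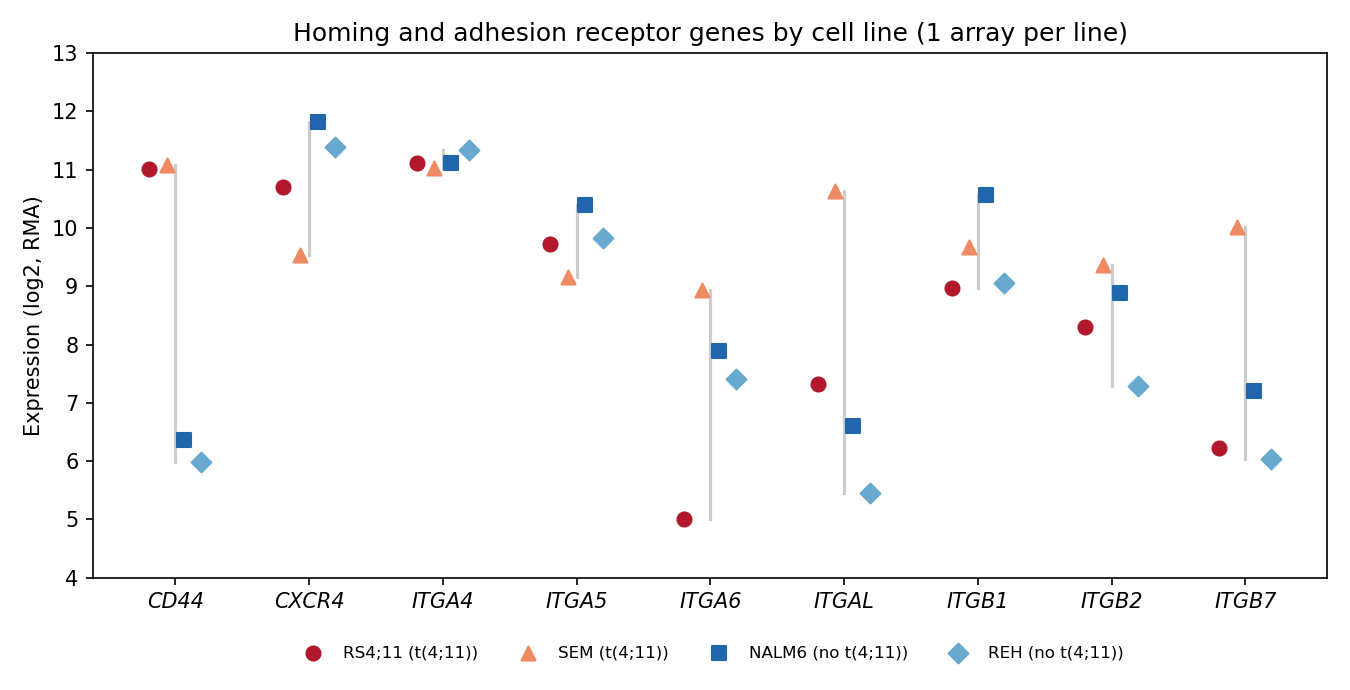
Levels of the 9 receptor genes (log2, vertical axis) in each line (coloured symbols, 1 array per line), with a grey bar from the lowest to the highest line. CD44 is near 11 in both t(4;11) lines and near 6 in both others, while SEM lies far above the other 3 lines in ITGAL and ITGB7 and ITGA4 is almost level.

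To show what lies ahead of the transcription start of receptors with contrasting profiles, the reference sequence of the 250 bases before the start is given for CD44 (divided by group), ITGB7 (high in SEM alone, described further down) and ITGA4 (level over the lines). They are RefSeq sequences of build GRCh38.p14 and not sequences of these lines, at chr11:35138921-35139170 on the plus strand for CD44, chr12:53207252-53207501 on the minus strand for ITGB7 and chr2:181457136-181457385 on the plus strand for ITGA4. Capitals mark matches, on either strand, to any of 5 motifs: the GC box GGGCGG, the TATA box TATAAA, the CCAAT box CCAAT, a RUNX site TGTGGT and an AP-1 site TGANTCA.
CD44: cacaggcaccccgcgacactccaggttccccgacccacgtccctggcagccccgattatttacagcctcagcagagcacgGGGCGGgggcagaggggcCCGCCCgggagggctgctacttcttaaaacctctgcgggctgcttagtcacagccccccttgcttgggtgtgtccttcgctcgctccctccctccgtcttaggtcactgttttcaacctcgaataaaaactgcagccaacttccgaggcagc
ITGB7: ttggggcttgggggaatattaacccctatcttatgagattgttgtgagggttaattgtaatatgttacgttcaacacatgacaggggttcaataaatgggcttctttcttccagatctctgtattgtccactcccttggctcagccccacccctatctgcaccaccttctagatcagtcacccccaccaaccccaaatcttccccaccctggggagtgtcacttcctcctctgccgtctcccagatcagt
ITGA4: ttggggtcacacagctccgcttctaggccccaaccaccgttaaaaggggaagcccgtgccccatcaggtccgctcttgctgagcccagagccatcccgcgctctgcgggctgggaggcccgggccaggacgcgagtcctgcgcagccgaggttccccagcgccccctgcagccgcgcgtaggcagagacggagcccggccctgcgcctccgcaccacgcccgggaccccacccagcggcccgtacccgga

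The CD44 window held 2 GC boxes, which start 170 and 152 bases before the transcription start, and no match to the other motifs. The ITGB7 and ITGA4 windows held none of the 5 motifs. Of the 7 receptors with a window in the reference, 5 had a GC box in at least 1 window: CD44, CXCR4, ITGA5, ITGA6 and ITGB1. A TATA box was found for CXCR4, ITGA6 and ITGB1, a CCAAT box for CXCR4, a RUNX site for ITGA6 and an AP-1 site for none. CXCR4, ITGA6 and ITGB1 have several windows each, so these counts by receptor cannot be set directly against the shares of windows that follow. Among 35116 windows of the same length in the table, 42.6% held a GC box, 10.7% a TATA box, 32.0% a CCAAT box, 11.0% the RUNX site and 6.57% the AP-1 site, so that a GC box is common. The G and C content was 62.4% for CD44, 49.6% for ITGB7 and 72.8% for ITGA4, against a median of 58.0% over all windows. These letters describe the reference only, and nothing in the array data bears on binding or methylation there.

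The genes whose profile over the 4 lines lay nearest to that of CD44 were HTR1F, a serotonin receptor gene, RUNX2, a Runt transcription factor gene, and ZC3H12C, a zinc finger gene. Likeness was the root mean square difference between profiles, each centred on its own mean over the 4 lines, and it was 0.187, 0.203 and 0.217 log2 units for these 3. HTR1F was at 9.68 and 10.07 in RS4;11 and SEM and at 4.84 and 4.64 in NALM6 and REH. RUNX2 followed with 10.80, 11.10, 6.10 and 5.43 in the same order, and ZC3H12C with 9.03, 9.71, 4.69 and 4.35. In total 12 genes lay within 0.5 units of CD44. No other receptor was near it, the closest being ITGAL at 1.52, and the farthest pair of all 36 among the 9 was CD44 with CXCR4 (3.20).

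CXCR4 was ordered the other way. It stood at 10.71 in RS4;11 and 9.54 in SEM but reached 11.82 in NALM6 and 11.39 in REH. All 4 lines lay well above the array medians, both t(4;11) lines lay below both others, and the groups were 1.59-fold apart at their nearest lines. The means were 10.13 ± 0.83 and 11.60 ± 0.31 (SD, n = 2), which is 2.78-fold lower in the t(4;11) lines (difference -1.48, SE 0.49, 95% interval -2.96 to 0.00, limma adjusted p = 0.532). The test did not call this difference, and SEM carried much of it: it was 4.86-fold below NALM6 and at least 2.26-fold below each other line. Leaving out SEM reduced the difference to -0.89, and leaving out RS4;11 enlarged it to -2.07.

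**Figure D2:**
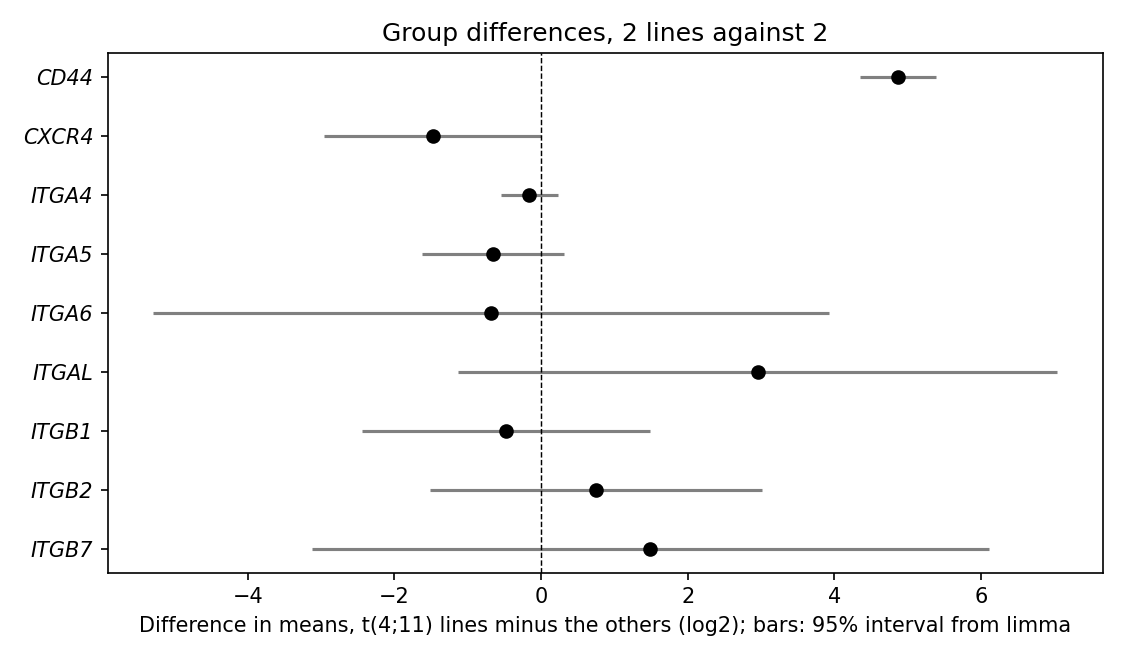
Difference in mean level between the t(4;11) lines and the others for each receptor gene (log2, horizontal axis), with bars for the 95% interval of the limma fit on 2 lines against 2. The interval of CD44 (4.35 to 5.39) is narrow and far from 0, that of CXCR4 ends at 0.00, and the wide intervals of ITGA6, ITGAL and ITGB7 reflect lines of 1 group that differ from each other.

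In ITGB1 and its alpha partners among the 9 receptors, ITGA4, ITGA5 and ITGA6, the differences between the group means were all below 1 unit in size. ITGA4, the alpha 4 chain, was almost level, with 11.12 in RS4;11 and 11.02 in SEM beside 11.11 in NALM6 and 11.34 in REH. Its whole range over the lines was 0.32 units (1.25-fold), the smallest of the 9 receptors, and the difference between the groups was -0.16 (SE 0.13, 95% interval -0.54 to 0.23, adjusted p = 0.753), or -0.27 to -0.04 with a line left out. No 2 neighbours in the order of the lines differed by more than 0.22, with RS4;11 and NALM6 apart by 0.01.

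ITGA5, the fibronectin receptor chain, had levels of 9.73 in RS4;11 and 9.16 in SEM beside 10.39 in NALM6 and 9.82 in REH. The groups did not overlap, but RS4;11 and REH were apart by only 0.09, which is less than the distance within either group (0.57 and 0.56). The difference was -0.66 (SE 0.32, adjusted p = 0.658), and it was -0.37 without SEM and -0.38 without NALM6. ITGB1, the shared beta 1 chain, had 8.97 in RS4;11 and 9.68 in SEM beside 10.56 in NALM6 and 9.05 in REH. Here the groups overlapped, NALM6 was the high line at 3.01-fold above RS4;11, and RS4;11 and REH were within 0.08 of each other. The difference of -0.48 (SE 0.65, adjusted p = 0.842) turned to 0.28 without NALM6.

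ITGA6, the laminin receptor chain, separated the t(4;11) lines from each other. RS4;11 had 5.0 and SEM 8.93, with 7.89 in NALM6 and 7.40 in REH. RS4;11 alone was low, at the level of the 25th percentile of its array, SEM was the highest line, and the distance between these t(4;11) lines was 15.2-fold. NALM6 and REH lay between them, 1.41-fold apart. The group difference of -0.68 (SE 1.53, adjusted p = 0.912) therefore describes neither line, and it was 1.28 without RS4;11 and -2.64 without SEM. ITGA6 was the 1 receptor of 9 in which RS4;11 stood at least 2-fold above or below each of the other 3 lines, as 1.38% of all genes did.

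The LFA-1 chains were highest in SEM. ITGAL was at 10.64 in SEM, 7.33 in RS4;11, 6.60 in NALM6 and 5.45 in REH. SEM was 9.93-fold above RS4;11, the next line, and REH was 2.21-fold below NALM6, so that ITGAL had the widest range of the 9 receptors (36.4-fold). The groups did not overlap, with RS4;11 1.66-fold above NALM6, and the means were 8.98 ± 2.34 and 6.02 ± 0.81 (SD, n = 2), a difference of 2.96 (SE 1.36, 95% interval -1.13 to 7.04, adjusted p = 0.638). Without SEM it was 1.30, and without RS4;11 it was 4.61.

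ITGB2, the partner chain of ITGAL, varied less. Its level was 9.37 in SEM, 8.89 in NALM6, 8.30 in RS4;11 and 7.28 in REH. SEM was again the highest line and REH the lowest, 4.25-fold apart, but NALM6 lay above RS4;11 and the groups overlapped. The difference was 0.75 (SE 0.75, adjusted p = 0.784) and fell to -0.05 without REH. REH stood at least 2-fold below each of the other lines in both LFA-1 chains, 2 receptors of 9, against 3.43% of all genes that stood apart by that much in REH in either direction.

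ITGB7, the gut-homing beta chain, was high in SEM alone. It was at 10.01 in SEM, 7.21 in NALM6, 6.22 in RS4;11 and 6.04 in REH. SEM was 6.96-fold above NALM6 and 13.8-fold above RS4;11, while RS4;11 and REH were within 0.18 of each other. The groups overlapped, and the difference of 1.49 (SE 1.54, 95% interval -3.13 to 6.11, adjusted p = 0.788) became -0.40 without SEM. ITGA4, the alpha chain that pairs with it, was at the same time level over the lines.

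**Figure D3:**
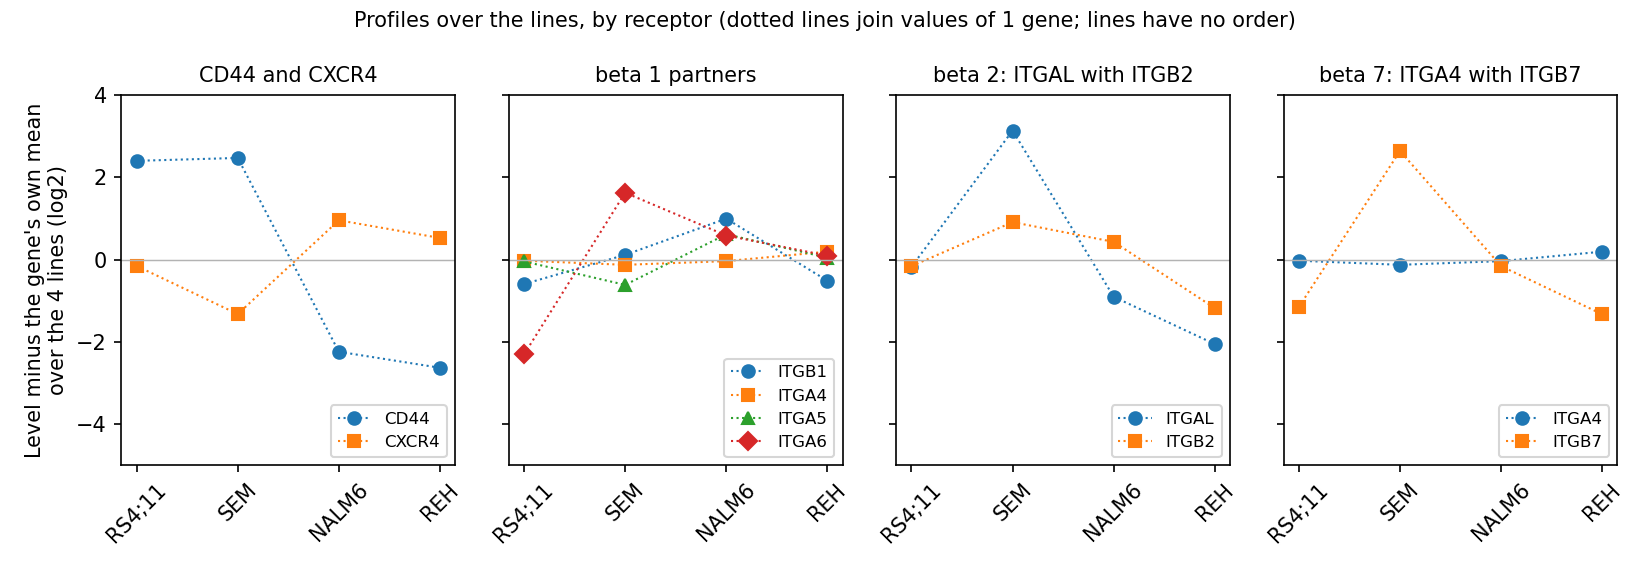
Level of each receptor gene minus its own mean over the 4 lines (log2, vertical axis) in the 4 lines (horizontal axis), with the chains of each integrin dimer in 1 panel. ITGAL, ITGB2 and ITGB7 are highest in SEM, where ITGA4, the partner of ITGB7, is level with the other lines, and ITGA6 is far lower in RS4;11 than elsewhere.

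Taken line by line, SEM stood at least 2-fold above or below each of the other lines in 4 of the 9 receptors, above them in ITGA6, ITGAL and ITGB7 and below them in CXCR4, against 2.34% of all genes. In NALM6 this held for 0 of 9, against 2.36%. SEM was the highest line in 5 receptors (22.9% of all genes had their highest value there) and the lowest in 3 (24.5%). REH was lowest in 4 receptors, RS4;11 in 2 and NALM6 in 0, against 33.7%, 19.9% and 21.9% of all genes. The median deviation of the 9 receptors from the mean of the other 3 lines was 1.21 in SEM, 0.57 in NALM6, -0.22 in RS4;11 and -0.69 in REH, where the medians over all genes lay between -0.03 and 0.02. These are single arrays, so that no test of a line was made and culture state, RNA and line cannot be told apart.

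A range of at least 2-fold over the 4 lines was found in 8 of the 9 receptors, all but ITGA4. It was found in 19.3% of all genes and in 30.7% of the 10259 genes that reached the median of all values in at least 1 line, as all 9 receptors did. The median range was 2.28 units for the receptors, 0.38 over all genes and 0.62 over those brighter genes. The groups did not overlap in 4 receptors (CD44 and ITGAL higher in the t(4;11) lines, CXCR4 and ITGA5 lower), 4 of 9 against 42.8% of all genes, which is near that background. The median difference between the groups was -0.16 for the 9 receptors and 0.01 over all genes, with 4 receptors higher and 5 lower.

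The chains of a dimer differed in how near their profiles lay to each other. The root mean square difference between centred profiles was 0.573 for ITGA5 with ITGB1, 0.699 for ITGA4 with ITGB1, 1.20 for ITGA6 with ITGB1, 1.37 for ITGAL with ITGB2 and 1.68 for ITGA4 with ITGB7, where the median of all 36 receptor pairs was 1.5. ITGAL lay nearer to ITGB7 (0.751) than to its own partner. The nearest pair of the 36 was ITGA4 with ITGA5 (0.413), which form no dimer. This measure is not scaled by range, so genes that vary little lie near each other. ITGA4 had a range of only 0.32, so its distances to ITGB1 and ITGB7 largely reflect the spread of those chains. Outside the 9 receptors, the nearest profiles to ITGAL were those of BANK1, a B-cell scaffold gene (0.395), the transporter gene SLCO4C1 (0.419) and the metalloprotease gene ADAM28 (0.448), with 5 genes within 0.5. BANK1 was at 10.51 in SEM and at 6.75, 5.47 and 5.24 in RS4;11, NALM6 and REH. Nearest to ITGB7 were KLRC3, an NK cell receptor gene (0.288), TMEM154, a membrane protein gene (0.331), and the homeobox gene PAX6 (0.336), with 22 genes within 0.5. KLRC3 was at 8.18 in SEM and between 4.77 and 5.25 in the other lines.

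Other genes of the same pathways were read in 7 lists with 159 measured genes. No gene of these lists passed the limma threshold over all genes, and 18 of the 159 had an unadjusted p under 0.05, where 9.39% of all genes did. Shares near that background say nothing particular about a list, and genes named below for such a p are descriptions. A separation of at least 2-fold was found in 7 of the 159 (4.4% for both directions together). In the t(4;11) lines 6 of them were upward and 1 downward. Over all genes the shares were 0.963% upward and 0.876% downward, each for 1 direction. The median difference of the 159 genes was 0.07.

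Among 18 other integrin chains, 1 was separated. ITGB5, a beta chain that pairs with alpha V, was at 8.95 in RS4;11 and 10.76 in SEM against 5.59 in NALM6 and 5.43 in REH, a difference of 4.35 (SE 0.71, adjusted p = 0.327). ITGB8, another partner of alpha V, was at 9.13 in SEM alone and between 4.44 and 4.59 elsewhere. ITGAV, the alpha V chain itself, was low in REH alone (4.79, against 7.92 to 8.98). In this list 14 of 18 chains stayed below the median of all gene values in every line. Among 19 ligands of the integrins none was separated, and none had an unadjusted p under 0.05. VCAM1, the ligand of the alpha 4 chain, was between 4.29 and 4.52 in all lines. The widest ranges belonged to JAM2, a junctional adhesion molecule gene, which was low in NALM6 alone (5.49, against 8.51 to 9.94), and to SPP1, the osteopontin gene, which was high in NALM6 alone (9.32, against 5.28 to 6.24).

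Of 31 genes that activate integrins or build the adhesion complex inside the cell, none was separated. At an unadjusted p under 0.05, which 9.39% of all genes had, 3 were higher and 1 lower. Those higher in the t(4;11) lines differed little. FERMT3, the blood cell kindlin that switches beta chains on, had a difference of 0.65 (SE 0.11, adjusted p = 0.327). TLN1, the talin that binds beta chain tails, had 0.48 (SE 0.12, adjusted p = 0.463), and LIMS1, a partner of integrin-linked kinase, had 0.60 (SE 0.11, adjusted p = 0.363). The adaptor gene PXN was the lower one, at -0.81 (adjusted p = 0.526). PTK2, the focal adhesion kinase, and SKAP2, an adaptor of integrin signalling, had the widest ranges, and in both NALM6 was the low line (5.34 and 5.17). The other lines lay between 9.56 and 10.73 for PTK2 and between 8.41 and 10.34 for SKAP2.

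Of 17 genes linked to CD44, 2 were separated, both upward. SRGN, the serglycin core protein, a proteoglycan that CD44 can bind, was at 10.29 and 11.04 in RS4;11 and SEM against 8.09 and 6.41 in NALM6 and REH (difference 3.42, SE 0.71, adjusted p = 0.405). MMP14, a membrane metalloprotease able to cleave CD44, was at 7.11 and 9.37 against 5.92 and 5.63 (difference 2.46, SE 0.89, adjusted p = 0.564). Of the linkers to the cytoskeleton, moesin (MSN) lay between 12.11 and 12.47 and radixin (RDX) between 9.59 and 10.07, and ezrin was not analysed here.

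Of 22 genes of the CXCR4 axis, none was separated. At an unadjusted p under 0.05, which 9.39% of all genes had, 2 were lower. These were GRK3, a receptor kinase, with a difference of -0.84 (SE 0.28, adjusted p = 0.53), and ELMO1, a partner of the migration factor DOCK2, with -1.40 (SE 0.35, adjusted p = 0.452). The ligand gene CXCL12 was between 4.78 and 4.85 in every line. ARRB1, an arrestin that takes receptors off the surface, had 9.45 in RS4;11 and 7.02 in SEM beside 10.71 in NALM6 and 10.11 in REH, and SEM was the low line, as for CXCR4. RGS16, a brake on G protein signals, was highest in NALM6 (9.57) and lowest in REH (6.31).

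Among 26 other homing receptors and selectin ligands, CD24 alone was separated, downward. At an unadjusted p under 0.05, which 9.39% of all genes had, 1 gene was higher and 1 lower. The higher was GLG1, an E-selectin ligand gene (difference 1.0, SE 0.14, adjusted p = 0.293), and the lower S1PR4, a sphingosine phosphate receptor gene (difference -0.76, SE 0.14, adjusted p = 0.353). CD24, a sialoglycoprotein that can bind P-selectin, had 10.50 in RS4;11 and 6.33 in SEM beside 12.49 in NALM6 and 12.19 in REH (difference -3.92, SE 1.62, adjusted p = 0.61). SEM again was the outlying line. CCR7, the lymph node homing receptor, reached 7.57 in NALM6 and lay between 5.57 and 6.0 elsewhere, and 21 of the 26 genes stayed below the median of all gene values in every line. Among 26 tetraspanins and other adhesion molecules 3 were separated, all upward. CD96, a receptor for the nectin-like adhesion ligand PVR, was at 12.22 in RS4;11 and 12.03 in SEM against 5.28 and 5.83 in NALM6 and REH (difference 6.57, SE 0.24, adjusted p = 0.0587). SLAMF1, a homotypic adhesion receptor, was at 9.07 and 8.83 against 5.84 and 4.68 (difference 3.69, SE 0.47, adjusted p = 0.274). CD93, a C-type lectin receptor, was at 8.0 and 8.24 against 6.07 and 6.75 (difference 1.71, SE 0.29, adjusted p = 0.33). In this list 6 genes were higher and 2 lower at an unadjusted p under 0.05, which 9.39% of all genes had. Besides the 3 separated genes, CD37 was higher (difference 1.21, SE 0.38, adjusted p = 0.517). So were CD151 (difference 0.66, SE 0.13, adjusted p = 0.37) and BSG (difference 0.43, SE 0.11, adjusted p = 0.471). The lower were CD58 (difference -1.06, SE 0.29, adjusted p = 0.481) and CD47 (difference -0.41, SE 0.09, adjusted p = 0.408). CD84, a relative of SLAMF1, was high in NALM6 alone (11.10, against 5.50 to 7.62).

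**Figure D4:**
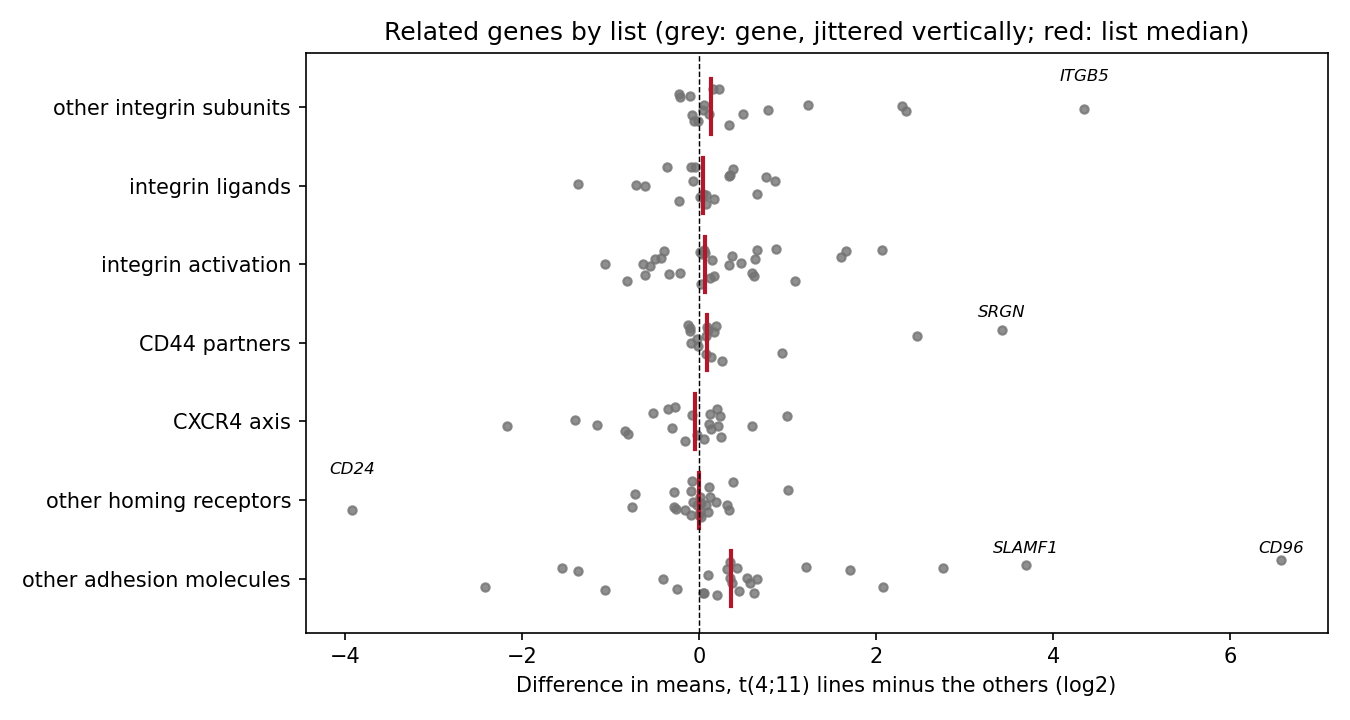
Difference between the t(4;11) lines and the others (log2, horizontal axis) for every measured gene of the 7 lists of related genes (grey points, spread vertically at random within a list), with the list median in red. Medians lie between -0.05 and 0.36, and the far points are CD96 (6.57), ITGB5 (4.35), SLAMF1 (3.69), SRGN (3.42) and CD24 (-3.92).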

How the data were processed

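The authors deposited log2 values from Affymetrix whole-transcript arrays. Per the submitters' processing notes, RMA and Partek were used. Their versions and the array's genome build were not given in the sources used here. A log2 scale was taken from the values (3.44 to 14.27). RMA equalises the distributions of arrays, so a difference in total signal between lines cannot appear, and 1 probe set per receptor sums over splice forms. Of 32968 probe sets, 19310 had 1 gene symbol in the platform annotation, 1752 several and 11906 none listed. Of those with 1 symbol, 19279 matched RefSeq (GRCh38.p14) by Entrez ID, with 0 symbols updated. The probe set with the highest mean stood for a gene, which left 18377 genes.

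Group differences were fitted with limma 3.58.1 in R 4.3.3 (lmFit and eBayes, no covariates, 2 residual and 1.34 prior degrees of freedom), two-sided, with Benjamini-Hochberg adjustment over all genes. The line is the replicate, and p-values set the group difference against the spread between lines within groups, moderated over all genes. With 1 array per line, that spread cannot be told apart from culture and array differences. The labels name no batch. The fit was tested on simulated data. RefSeq promoter windows held 7 of the 9 receptors, and 3 of these are printed. Tables and plots used Python 3.11.15, pandas 2.3.3, numpy 2.4.6 and matplotlib 3.10.9.

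The 9 receptors, the 7 lists and the tests were chosen with earlier results of these data known. Named list genes are those separated 2-fold between the groups (at most 5 per list), and the 2 of widest range per list among genes that reach the median of all gene values. Likeness is given for CD44 and the 2 other receptors of widest range. VCAM1, CXCL12, MSN, RDX, ITGAV and the genes named for an unadjusted p were chosen outside this rule, after their values were seen. The alternatives were other scalings, the mean of probe sets, removal of genes that stay below 6.75 in every line, other variance models, all probe sets, a threshold of 0.1 and leaving out each line.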

Additional observations from a re-analysis of the deposited data

How the results depend on the processing

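The count of 0 receptors past the limma threshold became 1, CD44, with arrays centred on their medians, without dim genes and at a threshold of 0.1. The count of 0 related genes became 1, CD96, under the same 3 changes. Centring shifted the median difference of all genes from 0.013 to 0.038. Both CD44 and CD96 pass the filter on dim genes through their high lines only, RS4;11 and SEM. Without any moderation of variances no gene of the whole table passed (smallest adjusted p = 0.244), and the adjusted p of CD44 was 0.473. Over all other settings with 4 lines it lay between 0.0349 and 0.0693. With any line left out no gene of the whole table passed (smallest adjusted p between 0.115 and 0.224), so that the counts of 0 there say nothing about the receptors. The count of receptors separated 2-fold was 1 under each scaling and filter and ranged from 2 to 5 without 1 line, because 3 lines are parted more easily than 4, and CD44 was among them each time.

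Of 108 differences of single receptors under 12 alternatives, 102 kept their direction and their side of the threshold and 4 changed sign, each when 1 line was left out: ITGA6 (1.28 without RS4;11, over a range from -2.64), ITGB7 (-0.40 without SEM, up to 3.38), ITGB1 (0.28 without NALM6, down to -1.23) and ITGB2 (-0.05 without REH, up to 1.55). The other 2 are those of CD44 past the threshold. With 2 lines a group and 1 array a line, the number of arrays limits every value, and signal over background is unknown.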
